A study of Mus musculus with 12 samples.

Results

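The genes described here are the heat shock proteins and the DnaJ (J-domain) co-chaperones of the mouse cortex and cerebellum. They were chosen by symbol: every gene named Hspa, Hspb, Hspd, Hspe, Hsph, Hsp90, Dnaja, Dnajb or Dnajc followed by its number, leaving out the HSP70 regulator Hspbp1 and the HIF-associated gene Hspbap1, and averaging 10 normalized counts or more over the 12 libraries. Of 66 genes with such a symbol, 65 passed this level, 25 heat shock proteins and 40 DnaJ genes, out of 15759 entries in the table and 15369 tested genes. The rule used the mean level alone and no comparison between groups. Hspb7 lay just outside it, with a mean of 7.78 normalized counts, and Dnajb13 (11.3), Hspa1l (14.2) and Hspb2 (18.8) lay just inside.

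Polyadenylated RNA was sequenced from 4 groups of 3 libraries each: SCA1 KI cortex, WT cortex, SCA1 KI cerebellum and WT cerebellum, all from C57BL/6J mice aged 12 weeks, the WT mice being littermates of the SCA1 KI mice. SCA1 KI mice model spinocerebellar ataxia type 1 and carry, at the mouse Atxn1 gene, 1 allele with 154 glutamine codons and 1 with 2 (Atxn1 154Q/2Q), so ataxin-1 with the long glutamine tract is made wherever Atxn1 is expressed. Each library holds macrodissected whole cortex or cerebellum, and in such tissue fewer cells of a type and less RNA per cell cannot be told apart. The sex of the mice is given as male in the labels and as both sexes in the paper, and was not used. The cerebellar libraries belong to an earlier dataset of the same laboratory, so region and dataset cannot be told apart in any comparison between cortex and cerebellum. The table names its libraries by letter or number, and these names are kept here: B, C and D for WT cortex, A, E and F for SCA1 KI cortex, 2, 4 and 6 for WT cerebellum and 1, 3 and 5 for SCA1 KI cerebellum. The series text calls the 3 libraries of a group biological replicates, and the genotype was taken from the labels because counts per gene do not separate the Atxn1 alleles.

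Molecular chaperones hold and refold proteins that have lost or not yet reached their fold. HSP70 proteins (Hspa genes) bind exposed stretches in cycles of ATP hydrolysis that J-domain proteins (Dnaj genes) start and nucleotide exchange factors such as the HSP110 proteins end. HSP90 proteins mature signalling proteins, small heat shock proteins (Hspb genes) hold unfolded proteins without ATP, and HSP60 with HSP10 folds proteins inside mitochondria. A part of these genes is switched on by heat shock factor 1 when unfolded proteins build up, and others by the unfolded protein response of the endoplasmic reticulum (ER). Chaperones are studied in polyglutamine disease because several of them keep proteins with long glutamine tracts from aggregating in cell and animal models. The comparison of SCA1 KI with WT in each region asks which of these genes differ with the genotype, and the comparison of the 2 regions asks where they differ without it.

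Each library held between 29520855 and 51311309 reads on genes. Markers of cerebellar granule cells summed to 3368 to 3749 normalized counts in the WT cortex and 112020.3 to 157458 in the WT cerebellum and those of cortical excitatory neurons to 77957 to 79546 and 12018 to 17030. In the cortex, the cortical excitatory neuron list summed to 77957 to 79546 in WT and 53866 to 63254 in SCA1 KI libraries (1 of 5 markers lower, Slc17a7), the astrocyte list to 50263 to 55335 and 33383 to 43584 (3 of 5 lower), the Purkinje cell list to 41760.1 to 44732 and 24133 to 28302 (3 of 5 lower, Calb1, Car8 and Itpr1), and the immediate early gene list to 26861 to 43526 and 15023 to 21302 (2 of 6 lower). Purkinje cells are cerebellar, so their list does not measure them in the cortex. In the cerebellum the Purkinje cell list summed to 271778 to 341869 in WT and 250175 to 282083 in SCA1 KI libraries, overlapping. The midbrain list summed to 241 to 336 in WT and 833 to 1607 in SCA1 KI cortex (2 of 5 tested markers higher), with Gata3 at or near 0 in WT. In the cerebellum, the oligodendrocyte list summed to 163466 to 250154 in WT and 139174 to 139535 in SCA1 KI (0 of 5 called), the astrocyte list to 96669 to 99595 and 86924 to 90285 (1 of 5 lower, Aldh1l1), the thalamus list to 7344 to 12394 and 3708 to 4088 (4 of 5 lower), and the midbrain list to 646 to 948 and 219 to 271 (3 of 5 lower). Single libraries stood apart in the choroid plexus list, with 1393 in SCA1 KI cerebellar library 1 against 25724 and 75977 in the others of its group, 72989 in WT cerebellar library 4 against 19984 and 22403, and 1717 in WT cortex library B against 245 and 269. The part of these differences in the chaperone results was not tested.

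In the cortex, 12 of the 65 genes differed between SCA1 KI and WT. Higher were the cytosolic chaperones with the highest levels, Hsp90ab1, Hspa8 and Hsp90aa1, together with mitochondrial Hspd1 and the J-domain genes Dnajc12 and Dnajc17. Lower were the stress-inducible Hspa1a and Hspa1b, the atypical HSP70 Hspa12a, and the J-domain genes Dnajc21, Dnajc16 and Dnaja4. These calls come from limma on log2(normalized count + 1) across all 15369 genes, with a Benjamini-Hochberg adjusted p under 0.05 and an absolute log2 fold change (LFC) over 0.25. Each LFC is given ± its standard error. The 6 higher genes are to be read against 4.82% of all tested genes called higher, and the 6 lower ones against 10.8% called lower. The median LFC of the 65 genes was 0.0047, beside -0.0028 for all tested genes. For 17 of the 65 genes, the 12 called ones included, no SCA1 KI library lay within the range of WT, and 30.9% of all tested genes were separated in this way. Of the 53 genes that were not called, the 48 that averaged 100 normalized counts or more had LFC between -0.38 and 0.23.

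**Figure D1:**
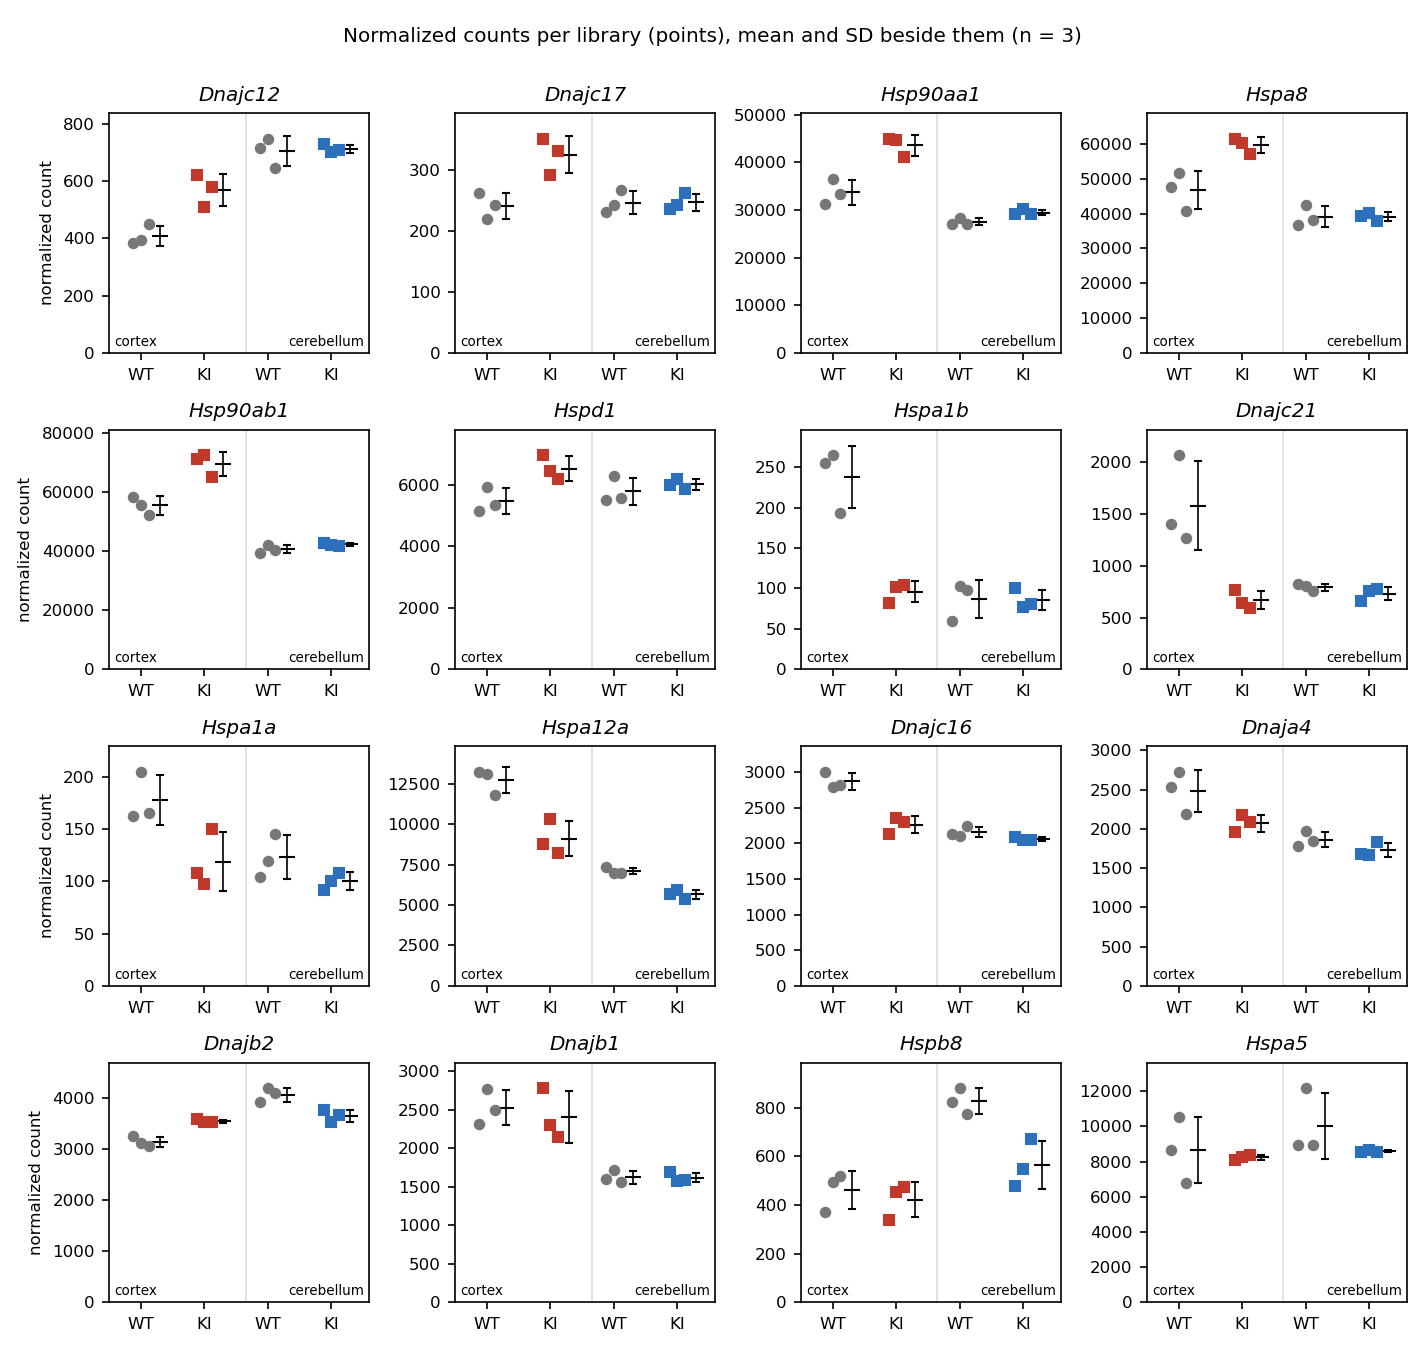
Normalized counts (y axes, from 0) of the 12 members called in the cortex and of Dnajb2, Dnajb1, Hspb8 and Hspa5 in each library of the 4 groups (x axis), with circles for WT, squares for SCA1 KI and the mean with its SD (n = 3) beside the points. In the first 12 panels the SCA1 KI and WT points of the cortex do not overlap, while in the cerebellum only Hspa12a among those 12 was called.

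The cytosolic HSP90 genes rose in the SCA1 KI cortex, by about the same LFC for both. Hsp90ab1 encodes the constitutive form and lies at chr17:45567775-45573271, minus strand (GRCm38, here and for all positions below, with gene models of GENCODE vM21). It had 58529.7, 55782 and 52243 normalized counts in WT cortex and 71251, 72509.8 and 65080.5 in SCA1 KI cortex. Every SCA1 KI library lay above every WT library (LFC 0.33 ± 0.06, adjusted p = 0.00334). Hsp90aa1, the stress-inducible form (chr12:110690605-110702728, minus strand), had 31311, 36507 and 33473 normalized counts in WT and 44998, 44674 and 41118 in SCA1 KI cortex (LFC 0.37 ± 0.06, adjusted p = 0.00171), again without overlap. Hsp90b1, the HSP90 of the ER, stayed uncalled with 14614, 15120.0 and 12445 in WT and 12786, 13710.1 and 13542 in SCA1 KI libraries (LFC -0.07 ± 0.07, adjusted p = 0.563). Both calls held when any 1 library was left out and under the 9 other settings.

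Among the 11 HSP70 genes, 1 rose and 3 fell in the SCA1 KI cortex, read against 4.82% and 10.8% of all tested genes. Hspa8, the constitutive HSP70 that also strips clathrin from vesicles (chr9:40800984-40810087, plus strand), rose from 47639, 51692 and 40809 normalized counts in WT to 61531, 60232 and 57083 in SCA1 KI libraries (LFC 0.36 ± 0.08, adjusted p = 0.0107). The lowest SCA1 KI library lay above the highest WT library, WT library C. Hspa8 exons hold 3 small nucleolar RNA genes on the same strand, so some of its counted bases are shared with them. The call was lost, at an adjusted p of 0.0514, when the cortex was fitted on its own.

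Hspa1a and Hspa1b encode the major stress-inducible HSP70 and are adjacent, nearly identical copies on the minus strand of chromosome 17, at chr17:34969190-34972156 and chr17:34956436-34959238, so how reads were split between them is uncertain. Hspa1b had 255, 265 and 194 normalized counts in WT cortex and 81.8, 102 and 105 in SCA1 KI cortex (LFC -1.29 ± 0.21, adjusted p = 0.00111). Hspa1a had 163, 205 and 165 and 108, 97.2 and 150.5 (LFC -0.59 ± 0.18, adjusted p = 0.039). In both, each WT library lay above each SCA1 KI library. With the 2 genes summed, a setting added after the data were seen, the WT cortex libraries had 418, 469 and 359 and the SCA1 KI libraries 190.2, 199 and 255 normalized counts (LFC -0.95 ± 0.16, adjusted p = 0.00139). The Hspa1b call held without any 1 library and under the other settings. That of Hspa1a was lost with the cortex fitted on its own, with edgeR, and without cortex libraries A, B, C, D or E or cerebellar libraries 1, 3 or 5, with LFC from -0.78 to -0.46 over the libraries left out. Immediate early genes, which neuronal activity induces, were lower in the same SCA1 KI libraries (sums above), and WT library C was highest both in their sum and in Hspa1a and Hspa1b. Among the SCA1 KI libraries A, E and F the order was reversed. The immediate early genes summed to 21302, 18567 and 15023 there, and Hspa1a plus Hspa1b to 190.2, 199 and 255. The part of the immediate early genes' difference in the Hspa1a and Hspa1b values was not tested.

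Hspa12a is a distant relative of HSP70 (chr19:58795750-58943654, minus strand), and it was the one member called in both regions. In the cortex it fell from 13234, 13116 and 11803 normalized counts in WT to 8759, 10319.8 and 8207 in SCA1 KI (LFC -0.49 ± 0.08, adjusted p = 0.00116). In the cerebellum it fell from 7334, 6966 and 6998 to 5680.2, 5910.3 and 5374 (LFC -0.33 ± 0.08, adjusted p = 0.0306). SCA1 KI lay below WT without overlap in both regions, and the difference between the 2 effects did not pass the test (interaction LFC -0.16, 95% interval -0.40 to 0.09, adjusted p = 0.466). The cortical call held without any 1 library. The cerebellar call was lost without any 1 of the 6 cerebellar libraries, with LFC from -0.36 to -0.29 and an adjusted p of up to 0.129.

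The other HSP70 genes were not called in the cortex. Hspa5 encodes BiP, the HSP70 of the ER lumen, and had 8668, 10539 and 6755 normalized counts in WT and 8071, 8259 and 8387 in SCA1 KI cortex, where the WT libraries alone spanned the SCA1 KI values (LFC -0.05 ± 0.14, adjusted p = 0.857). Of the 3 HSP110 genes, whose products release ADP from HSP70 and support disaggregation, none was called. Among all tested genes, 4.82% were called higher and 10.8% lower in the cortex. Hspa4, which has the highest mean of the HSP110 genes over all 12 libraries though not in the cortex, had 12229, 13757 and 11364 in WT and 11434, 13091 and 11873 in SCA1 KI cortex, overlapping (LFC -0.04 ± 0.08, adjusted p = 0.798).

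None of the 6 small heat shock genes was called in either region. Among all tested genes, 4.82% were called higher and 10.8% lower in the cortex, and 0.917% and 4.44% in the cerebellum. Hspb8, which with the co-chaperone Bag3 hands misfolded proteins to autophagy, had 372, 496 and 519 normalized counts in WT and 338, 454 and 472 in SCA1 KI cortex, overlapping (LFC -0.13 ± 0.16, adjusted p = 0.624). In the cerebellum it had 824, 879 and 772 in WT and 476, 547 and 671 in SCA1 KI, without overlap, and just missed the threshold (LFC -0.56 ± 0.16, adjusted p = 0.0661). It passed with DESeq2, with the cerebellum fitted on its own, and without cerebellar library 5 or cortex libraries A or B. In the same SCA1 KI cerebella 4 of 5 thalamus markers were called lower, and 0 of 5 oligodendrocyte markers were, though their sums did not overlap (values above), and the part of either in this value was not tested. Hspb1, or HSP27, had 149, 184 and 169 in WT and 141, 136 and 136 in SCA1 KI cortex (LFC -0.27 ± 0.13, adjusted p = 0.182) and 224, 215 and 165 and 163, 163 and 172 in the cerebellum (LFC -0.26 ± 0.13, adjusted p = 0.331).

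Hspd1 and Hspe1 encode HSP60 and HSP10, the mitochondrial chaperonin and its lid, and lie head to head on chromosome 1. Upstream of the RefSeq start of both lies 1 stretch with 2 overlapping heat shock elements, the kind of site that heat shock factors bind. It is shown on the strand of each gene because the window of each holds it, with the match in capitals, from RefSeq promoters on GRCm38 (chr1:55088054-55088081):
Hspd1 (minus strand): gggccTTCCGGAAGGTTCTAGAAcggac
Hspe1 (plus strand): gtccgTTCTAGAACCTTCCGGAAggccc
On the Hspd1 strand it spans bases -144 to -127 relative to the RefSeq start, and on the Hspe1 strand bases -89 to -72. Hspd1 (chr1:55077835-55088243, minus strand) had 5130.0, 5927 and 5352 normalized counts in WT and 6958, 6434 and 6174 in SCA1 KI cortex (LFC 0.25 ± 0.07, adjusted p = 0.0282). Hspe1 had 1233, 1333 and 1502 and 1731, 1392 and 1409, with overlap (LFC 0.15 ± 0.09, adjusted p = 0.3). The Hspd1 call was lost with the cortex fitted on its own, with trends on gene length and GC content taken out, and without cortex library A, B, D or E, with LFC from 0.18 to 0.26 in those fits. Their exons overlap by 112 bases on opposite strands, and reads there may count for either.

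Of the 40 J-domain genes, 2 rose and 3 fell in the SCA1 KI cortex, read against 4.82% and 10.8% of all tested genes. Dnajc21, a ribosome-linked J-protein that works in the maturation of the large ribosomal subunit (chr15:10446756-10470516, minus strand), fell the most of the 40. Its WT cortex libraries had 1399.8, 2066 and 1268 normalized counts and its SCA1 KI libraries 766, 644 and 596 (LFC -1.21 ± 0.15, adjusted p = 0.00019). WT library C stood well above B and D, and without it the gene was still called (adjusted p = 0.000281). Both cerebellar groups lay below every WT cortex library, at 824, 800.1 and 758 in WT and 664, 757 and 774 in SCA1 KI.

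Dnajc16, an ER J-protein (chr4:141760189-141790931, minus strand), had 3005, 2786 and 2822 normalized counts in WT and 2126, 2354 and 2303 in SCA1 KI cortex (LFC -0.35 ± 0.06, adjusted p = 0.00137). Like those of Dnajc21, its groups did not overlap and its call held without any 1 library. Dnaja4, a cytosolic J-protein of the heat-inducible class (chr9:54698873-54716315, plus strand), had 2532, 2728 and 2188 in WT and 1957, 2172 and 2093 in SCA1 KI cortex (LFC -0.25 ± 0.08, adjusted p = 0.0496). Its call was at the threshold: it held in 2 of the 12 fits that left out 1 library, those without cortex library D or cerebellar library 2, and in 5 of the 9 other settings, with LFC from -0.34 to -0.18. Its exons overlap those of Wdr61 on the other strand by 1581 bases.

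Dnajc12 and Dnajc17 were the J-domain genes that rose. Dnajc12, the co-chaperone of the hydroxylases that make dopamine and serotonin precursors (chr10:63382443-63410576, plus strand), had 384, 393 and 449.7 normalized counts in WT and 619.9, 510.1 and 578 in SCA1 KI cortex (LFC 0.48 ± 0.09, adjusted p = 0.00391). The midbrain list summed higher in the same SCA1 KI libraries (sums above), its called markers being Pou4f1 and Tal1. Th and Tph2, the hydroxylase genes on that list, were not called. The part of the midbrain list in the Dnajc12 value was not tested. Dnajc17, a nuclear J-protein that binds RNA (chr2:119172500-119208795, minus strand), had 261, 219 and 243 in WT and 351, 291 and 331 in SCA1 KI cortex (LFC 0.43 ± 0.11, adjusted p = 0.0168). The Dnajc12 call held without any 1 library, whereas that of Dnajc17 was lost without library A (LFC 0.37) or C (LFC 0.36) and with the cortex fitted on its own.

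Most J-domain genes, 35 of 40, were not called in the cortex, among them Dnajc5 and Dnaja2, which have the highest mean over all 12 libraries in the DNAJC and DNAJA classes. Dnajc5, the cysteine string protein of synaptic vesicles, had 16082, 17165 and 16108 normalized counts in WT and 14448, 15715 and 15292 in SCA1 KI cortex (LFC -0.12 ± 0.05, adjusted p = 0.132). Dnaja2, a general cytosolic partner of HSP70, had 8492, 9535 and 8785 and 9656, 9049 and 8507 (LFC 0.02 ± 0.06, adjusted p = 0.855). The SCA1 KI libraries lay below WT without overlap for Dnajc5, which did not pass the test, and overlapped WT for Dnaja2. Dnajb2 and Dnajc27 passed the adjusted p in the cortex with LFC of 0.17 and 0.22, below the limit of 0.25. Dnajc27 is named for this after its values were seen.

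Of 14 members listed as heat-inducible, a list that also holds the constitutive Hspa8 and Hsp90ab1 and the mitochondrial Hspd1 and Hspe1, 4 rose in the SCA1 KI cortex (Hspa8, Hsp90aa1, Hsp90ab1, Hspd1) and 3 fell (Hspa1a, Hspa1b, Dnaja4), where 4.82% of all tested genes were called higher and 10.8% lower. Of the 4 that rose, Hsp90aa1 is the one stress-inducible cytosolic form. The median LFC of the list was 0.061 beside -0.0028 for all tested genes. Of the other 7, none was called. Dnajb1, the main J-partner of inducible HSP70, had 2319.6, 2766 and 2498 normalized counts in WT and 2779, 2297 and 2143 in SCA1 KI cortex, overlapping (LFC -0.08 ± 0.09, adjusted p = 0.631). Hsph1 had 12862, 14970.5 and 10986 and 12329, 14919.5 and 12957 (LFC 0.06 ± 0.10, adjusted p = 0.751). Dnaja1 had 7772, 9760.0 and 8334 and 10356, 9709.5 and 8772 (LFC 0.16 ± 0.09, adjusted p = 0.231). None of these 3 separated the genotypes. Dnajb4 had 2845, 3237 and 3096 in WT and 3389, 3002 and 2919 in SCA1 KI cortex (LFC 0.02 ± 0.07, adjusted p = 0.883). Hspa4l had 5906, 6643 and 5587 and 5992, 6707 and 6232 (LFC 0.06 ± 0.07, adjusted p = 0.562). Hspb1 and Hspe1 are given above. Hsf1, the transcription factor of the heat shock response, had 1323, 1132 and 1078 in WT and 1067, 1216 and 1171 in SCA1 KI cortex (LFC -0.03 ± 0.09, adjusted p = 0.861).

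Of 10 members with a described effect on the aggregation of polyglutamine proteins, 3 were called in the cortex, Hspa8 higher (4.82% of all tested genes were) and Hspa1a and Hspa1b lower (10.8% of all tested genes were). The rest were Dnajb1, Dnaja1 and Hsph1 above, Hspb8, and 3 J-proteins. Dnajb6, a strong suppressor of polyglutamine fibres in cell models, had 3096, 3667 and 3679 normalized counts in WT and 3616, 3336 and 3238 in SCA1 KI cortex (LFC -0.03, 95% interval -0.20 to 0.14). Dnajc7, which bridges HSP70 and HSP90, had 4919.7, 5701 and 5103 and 5799, 5197 and 5317 (LFC 0.05, 95% interval -0.09 to 0.20). For both genes the libraries of the genotypes overlapped. Dnajb2, a neuronal J-protein that sends HSP70 clients to the proteasome, is described with the difference between regions below.

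The 13 ER members had 1 call in the cortex, Dnajc16, lower as were 10.8% of all tested genes, and a median LFC of -0.047. The unfolded protein response acts through the ER stress element, and 3 members hold it in the RefSeq promoter window, which has 300 bases and ends shortly after the start. These sites are shown because they belong to the ER chaperones themselves, with the whole match in capitals and the strand of the gene (GRCm38: chr2:34772020-34772048 plus, chr10:86705528-86705556 minus, chr10:86705633-86705661 minus, chr14:118937822-118937850 plus):
Hspa5, bases -65 to -47: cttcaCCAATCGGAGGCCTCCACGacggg
Hsp90b1, bases -107 to -89: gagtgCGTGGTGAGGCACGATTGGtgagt
Hsp90b1, bases -212 to -194: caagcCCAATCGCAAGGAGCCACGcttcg
Dnajc3, bases -105 to -87: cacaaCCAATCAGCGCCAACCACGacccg
The Hsp90b1 site nearest the start runs in the reverse direction. The cortical LFC of these 3 genes were -0.05, -0.07 and -0.11, and the cerebellar ones -0.21, -0.05 and -0.02, none called. The motif searched was CCAAT, 9 bases of any kind and CCACG on either strand, and 37 of 27025 genes with a RefSeq promoter (0.137%) held it, beside 3 of 53 members (5.66%).

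The heat shock element was searched as 3 units of GAA and TTC in alternation, 2 bases apart and on either strand. It was found in 4 of the 53 members with a promoter (7.55%) and in 179 of 27025 genes (0.662%). Besides the site shared by Hspd1 and Hspe1, Dnajb6 and Hsph1 held 1 each, counted from 1 of the starts of each gene (chr5:29735847-29735869 plus and chr5:149636283-149636305 minus):
Dnajb6, bases -46 to -34: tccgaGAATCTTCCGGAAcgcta
Hsph1, bases 15 to 27, after the start: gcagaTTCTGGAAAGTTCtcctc
Of these 4 genes, Hspd1 alone was called in the cortex. The windows of 12 members, Hsp90aa1, Hsp90ab1 and Hspa8 among them, were not analysed here. A match is a description of the letters in the window and does not show that a factor binds there. The windows of the heat-inducible Hspa1a, Hspa1b, Dnajb1 and Hspb1 were searched and held no match. Only exact units inside the window counted, so the absence of a match does not show that a gene lacks such an element.

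In the SCA1 KI cerebellum, Hspa12a was the one called member of 65, lower, and 0 were called higher. Among all tested genes, 4.44% were called lower and 0.917% higher. The median LFC of the 65 genes was 0.0015, beside -0.0049 for all tested genes, and 56 of them had an absolute LFC under 0.25. An unadjusted p under 0.05 was reached by 5 members. The share of all tested genes at that level is not given here, so this count has no base to be read against. The genotypes were separated for 19 members and for 31.8% of all tested genes. Hsp90ab1 had 39469, 42134 and 40311 normalized counts in WT and 42831, 42257 and 41804 in SCA1 KI cerebellum (LFC 0.06 ± 0.06, adjusted p = 0.726). Hspa8 had 36853, 42454 and 38179 and 39419, 40204 and 37810.0 (LFC 0.0015 ± 0.08, adjusted p = 0.996). Hspa1b had 60.3, 103 and 97.8 and 100.3, 76.9 and 81.3 (LFC 0.02 ± 0.21, adjusted p = 0.984). The genotypes overlapped for these 3, and for Hspa8 and Hspa1b the SCA1 KI libraries lay within the WT range. Hsp90aa1 had 27141, 28401 and 27071 in WT and 29233, 30132 and 29094 in SCA1 KI cerebellum, every SCA1 KI library lying above WT as in the cortex, and did not pass the test (LFC 0.10 ± 0.06, adjusted p = 0.492).

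**Figure D2:**
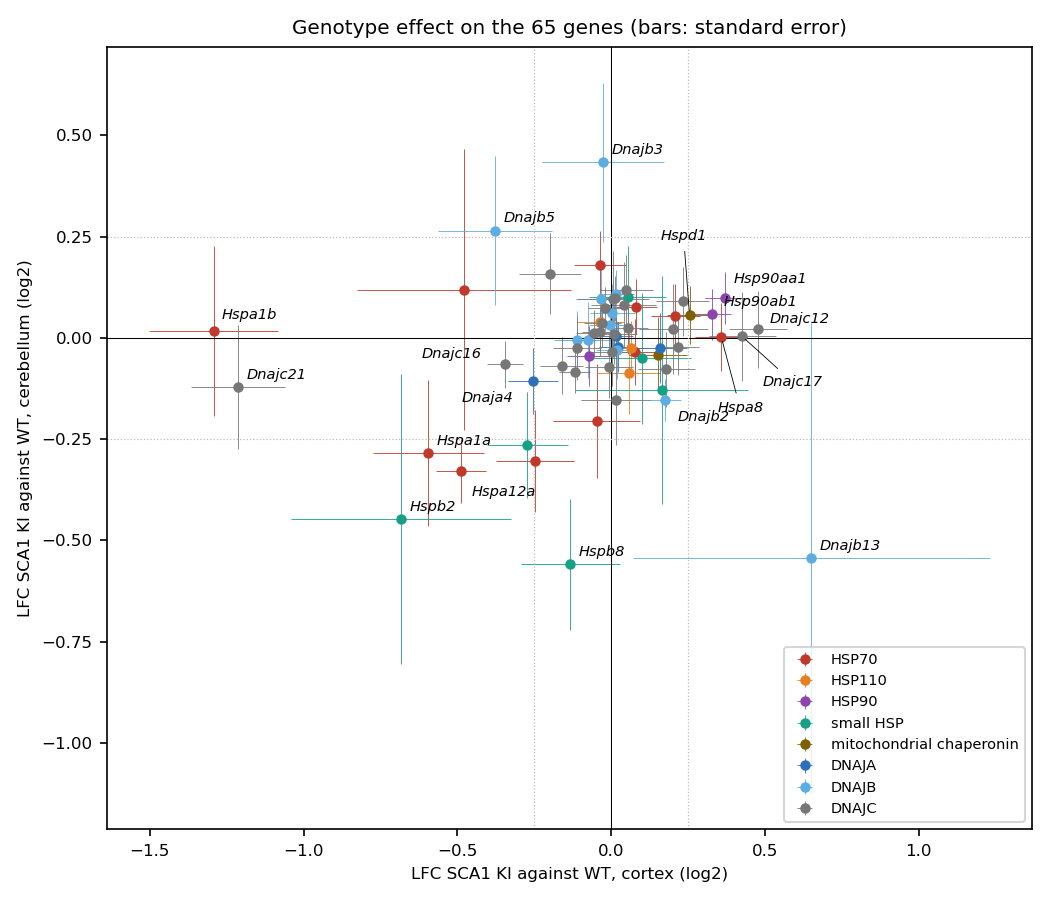
LFC of SCA1 KI against WT in the cortex (x axis) and in the cerebellum (y axis) for the 65 members, coloured by class, with bars of 1 standard error and dotted lines at an absolute LFC of 0.25. Hspa1b and Dnajc21 lie far to the left near the horizontal line, Hspa12a lies to the lower left, and Dnajb2 has opposite signs in the 2 regions.

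The genotype effect differed between cortex and cerebellum for 3 members by the test of the difference itself (interaction, adjusted p under 0.05). Hspa1b fell in the cortex, from 238 ± 38.7 to 96.2 ± 12.5 normalized counts (SD, n = 3), and had 86.9 ± 23.2 and 86.2 ± 12.4 in the cerebellum (interaction LFC -1.31 ± 0.30, adjusted p = 0.0168). Dnajc21 had 1578 ± 428 and 668 ± 87.7 in the cortex and 794 ± 33.5 and 731 ± 59.0 in the cerebellum (interaction LFC -1.09 ± 0.22, adjusted p = 0.00789). For both, the WT cortex stood apart from the other 3 groups. The Hspa1b difference was lost without cortex library C (LFC -1.23) or cerebellar library 1 (LFC -1.20), and that of the summed Hspa1a and Hspa1b was smaller (LFC -0.80 ± 0.23, adjusted p = 0.0482).

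Dnajb2 was the third, with a small effect of opposite sign in the 2 regions and little spread (chr1:75236406-75245692, plus strand). In the cortex it had 3258, 3113 and 3066 normalized counts in WT and 3584, 3538 and 3527 in SCA1 KI (LFC 0.17, 95% interval 0.06 to 0.29). In the cerebellum it had 3920.3, 4195 and 4092 and 3769, 3534 and 3670.1 (LFC -0.15, 95% interval -0.26 to -0.04). SCA1 KI lay above every WT library in the cortex and below every WT library in the cerebellum. The interaction LFC was 0.33 ± 0.07 with an adjusted p of 0.0143, and it was lost without cerebellar library 3 (adjusted p = 0.0508). Among all tested genes, 3.26% had a higher and 4.89% a lower effect in the cortex, against 1 and 2 of the 65 members. Hsp90aa1, Hsp90ab1 and Hspa8 had interaction LFC of 0.27, 0.27 and 0.36 and adjusted p of 0.0918, 0.0888 and 0.0907, so their higher levels were not shown to be particular to the cortex.

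Between the WT regions, 22 of the 65 members were higher in the cortex and 13 were lower there, read against 31.0% and 30.7% of all tested genes. The median LFC of cortex against cerebellum was 0.025 over the members and 0.0016 over all tested genes. Of the members higher in the cortex, the largest LFC were those of the small heat shock gene Hspb3 (116 ± 22 against 23.2 ± 4.98 normalized counts, SD, n = 3, LFC 2.27 ± 0.28, adjusted p = 1.10e-05) and of Dnajb5 (5464 ± 1777 against 1800.4 ± 223, LFC 1.56 ± 0.18, adjusted p = 7.28e-06). Hspa1b (LFC 1.47 ± 0.21, adjusted p = 4.11e-05), the testis-enriched but widely transcribed HSP70 gene Hspa2 (LFC 1.31 ± 0.08, adjusted p = 2.19e-08) and Hsph1 (LFC 1.23 ± 0.10, adjusted p = 2.68e-07) followed. Of the 14 members listed as heat-inducible, 9 were higher in the WT cortex and 1, Hspa4l, lower.

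Towards the cerebellum, Dnajb13, a J-protein of motile cilia and sperm flagella, came first by LFC, but at 13.1, 1.11 and 6.83 normalized counts in WT cortex and 15.5, 17.1 and 18.6 in WT cerebellum it was the lowest and most variable of the members (LFC -1.55 ± 0.58, adjusted p = 0.0307). Its call was lost with DESeq2 and without cortex library C (LFC -0.78) or cerebellar library 2, 4 or 6. Hspb8 (462 ± 79.2 against 825 ± 53.6, LFC -0.85 ± 0.16, adjusted p = 0.000439), Dnajc12 (LFC -0.78 ± 0.09, adjusted p = 8.66e-06), the diphthamide synthesis gene Dnajc24 (LFC -0.78 ± 0.09, adjusted p = 3.84e-06) and Hspa4l (LFC -0.77 ± 0.07, adjusted p = 3.78e-07) were also higher in the cerebellum.

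**Figure D3:**
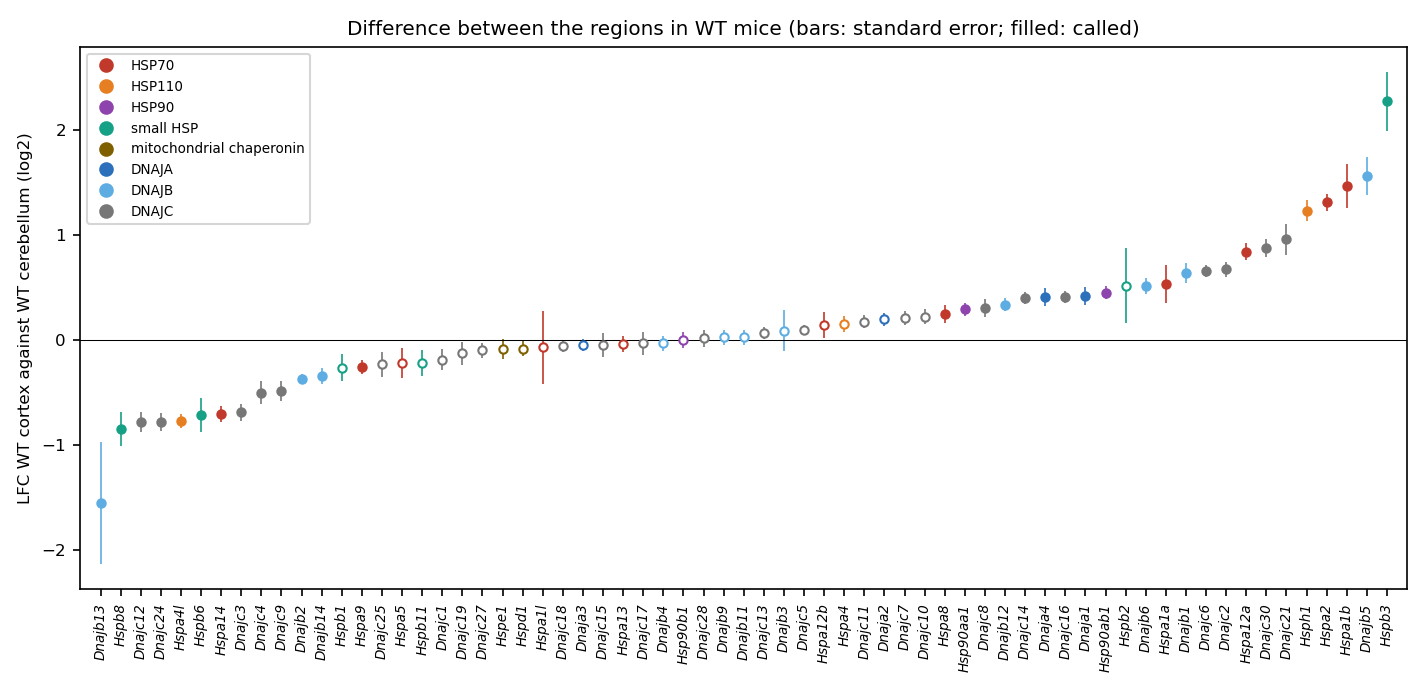
LFC of WT cortex against WT cerebellum (y axis) for the 65 members in order (x axis), coloured by class, with bars of 1 standard error and filled points where called. The order runs from Dnajb13 at -1.55 to Hspb3 at 2.27, and 30 members were not called.

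Counts were divided by the merged length of all annotated exons of a gene, which allows a rough comparison of levels between genes. Genes with long exons that few of their transcripts use come out too low. Per kilobase of exon, 3 genes stood above all others in every group. In WT cortex Hsp90ab1 had 18512, Hspa8 10861 and Hsp90aa1 8589 normalized counts per kilobase, ahead of Hsp90b1 with 3487. The inducible Hspa1a and Hspa1b had 59.8 and 84.9, though how reads were split between these nearly identical copies is uncertain. At the low end were Hspa1l with 5.97 and Dnajb13 with 2.56. The 3 leading genes took 37.7% to 39.1% of the members' summed normalized counts in WT cortex and 43.9% to 45.5% in SCA1 KI cortex, and the 65 genes together 0.839% to 0.935% and 1.03% to 1.08% of all counts. In the cerebellum the 65 genes took 0.816% to 0.872% in WT and 0.849% to 0.866% in SCA1 KI libraries.

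**Figure D4:**
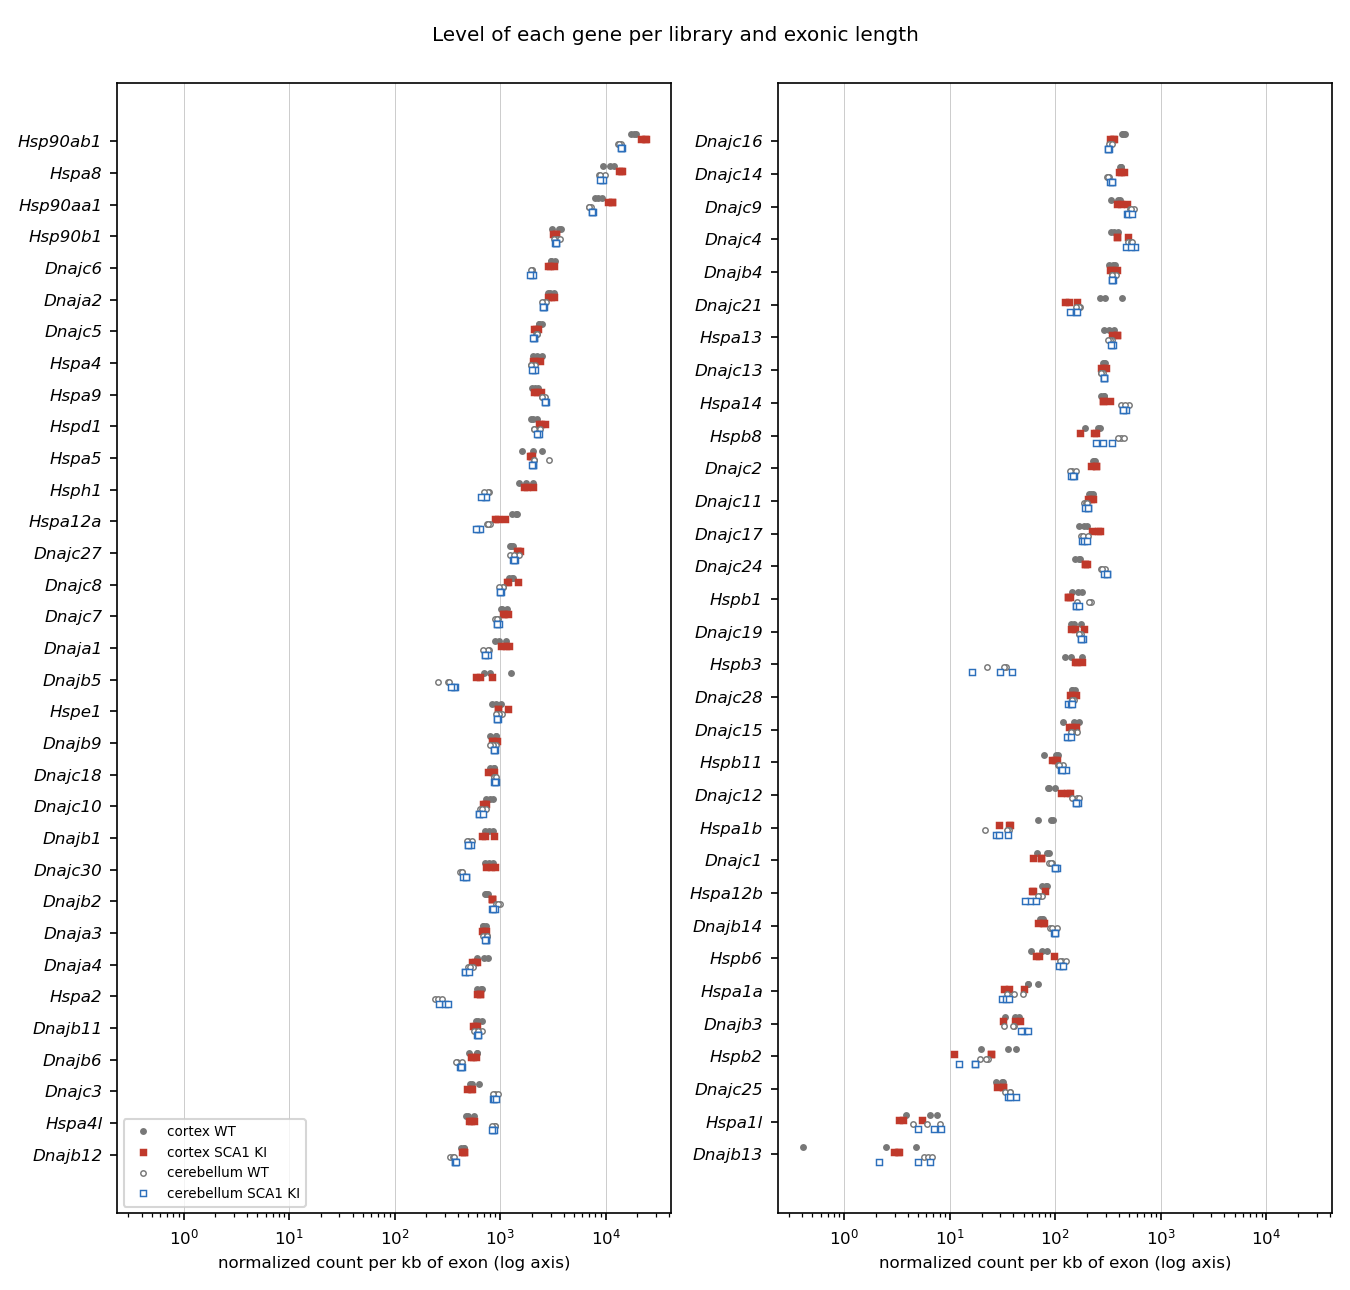
Normalized count per kilobase of exon (log x axis) of each member in each library, in order of the WT cortex mean and over 2 columns, with filled symbols for the cortex, open symbols for the cerebellum, circles for WT and squares for SCA1 KI. The SCA1 KI squares of Hsp90ab1, Hspa8 and Hsp90aa1 lie to the right of their WT circles in the cortex, and those of Hspa12a, Dnajc21 and Hspa1b to the left.

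Spread within groups was small for most members. The pooled SD of log2 values ran from 0.041 for Dnajb2 to 0.80 for Dnajb13, with a median of 0.10 over the members and 0.13 over all tested genes. For 26 of the 65 genes some exon overlaps another annotated gene, and the strand setting of the counting is not given in the sources used here.

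The partner genes of these chaperones were taken from lists by function. Of 13 tested genes of the cytosolic chaperonin CCT, which folds actin and tubulin, and of prefoldin, which delivers to it, 5 rose and 0 fell, read against 4.82% and 10.8% of all tested genes. Their median LFC was 0.24, and 9 of them did not overlap between the genotypes, as did 30.9% of all tested genes. Vbp1, a prefoldin subunit, had 1816, 2296 and 2253 normalized counts in WT and 3123, 2636 and 2754 in SCA1 KI cortex (LFC 0.42 ± 0.09, adjusted p = 0.00505). Cct3 had 3372, 3582 and 3459 and 4744, 4176 and 4255 (LFC 0.34 ± 0.06, adjusted p = 0.00186). Cct5 had 4314, 4827 and 4651 and 5649.9, 5460.0 and 5352 (LFC 0.26 ± 0.05, adjusted p = 0.00592). All 3 separated the genotypes in the cortex, and none of the 13 was called in the cerebellum, where the median LFC was 0.029. Among all tested genes, 0.917% were called higher and 4.44% lower in the cerebellum. Polyglutamine aggregation is also slowed by CCT in test-tube and cell models, which is background and not a result of these libraries.

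Of 18 HSP90 co-chaperones, 2 rose in the cortex, where 4.82% of all tested genes were called higher. Stip1, or HOP, which passes clients from HSP70 to HSP90, had 7049, 7486 and 6417 normalized counts in WT and 8117, 8881 and 7957 in SCA1 KI cortex (LFC 0.25 ± 0.07, adjusted p = 0.019). Ahsa2, a relative of the HSP90 ATPase activator, had 1037, 1122 and 822 and 1384, 1328 and 1343 (LFC 0.46 ± 0.10, adjusted p = 0.00599). Neither overlapped between the genotypes. In the cerebellum Tomm34 fell, from 1768, 1599 and 1655 to 1426, 1368 and 1351 (LFC -0.28 ± 0.06, adjusted p = 0.0205). There 4.44% of all tested genes were called lower. The Tomm34 effect differed between regions (interaction LFC 0.35, adjusted p = 0.0294).

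Of 13 regulators of HSP70, 1 rose in the cortex, Bag2, read against 4.82% of all tested genes called higher. Bag2 had 378, 405 and 416 in WT and 587, 504 and 470.3 in SCA1 KI libraries (LFC 0.38 ± 0.12, adjusted p = 0.0409). None of the 3 heat shock factors was called in the cortex, and Hsf4 fell in the cerebellum, from 379, 184 and 247 to 126, 109 and 146 (LFC -1.03 ± 0.23, adjusted p = 0.0187). There 4.44% of all tested genes were called lower. In the same SCA1 KI cerebella the thalamus and oligodendrocyte sums lay below WT without overlap (values above), and their part in the Hsf4 value was not tested. Of 11 further ER folding genes, Sdf2l1, a partner of the ER J-proteins, fell in the cortex, from 252, 337 and 254 to 164, 161 and 179 (LFC -0.73 ± 0.15, adjusted p = 0.00427), and the other 10 were not called. Among all tested genes, 10.8% were called lower in the cortex.

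**Figure D5:**
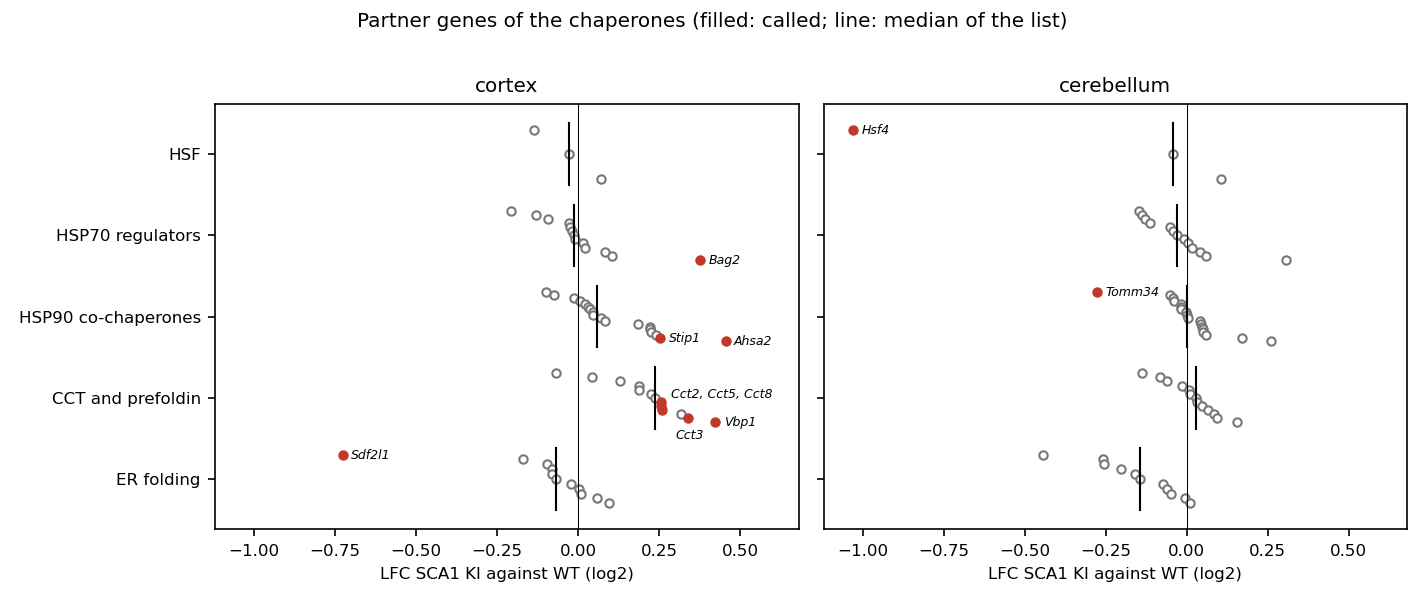
LFC of SCA1 KI against WT (x axes) in cortex (left) and cerebellum (right) for the genes of the 5 partner lists (y axis), with filled points for called genes and a line at the median of each list. In the cortex the CCT and prefoldin line lies at 0.24 and 5 of its points are filled, while the lines of the other lists lie between -0.069 and 0.058.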

How the data were processed

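The labels and the paper describe polyadenylated RNA of whole cortex and cerebellum, with 3 libraries in each of 4 groups. The authors aligned 75-base paired reads with STAR to mm10, counted reads per gene with featureCounts and divided the counts by DESeq2 size factors, and versions are not given in the sources used here. The deposited unit is therefore a normalized signal per gene. Multiplying it back gave whole reads for 100% of values (tolerance 0.01), which were passed to edgeR 4.0.16 and DESeq2 1.42.0. Depth was 29520855 to 51311309 reads on genes, which limits the precision of low genes.

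Genes with a mean of at least 10 (15369 of 15759) were tested with limma 3.58.1 in R 4.3.3 with a mean-dependent prior variance, on values logged as log2(normalized count + 1), in 1 fit of all 12 libraries and 4 group means, for SCA1 KI against WT in each region, the difference between these effects, and WT cortex against WT cerebellum. A gene was called at a Benjamini-Hochberg adjusted p under 0.05 over all tested genes and an absolute LFC over 0.25 (for the difference, the adjusted p alone). On the log2(value + 1) scale the LFC of low genes is understated. The test was tried on simulated data. Named with values are members called in a genotype comparison, the most abundant member of each class, the members of the heat-inducible and polyglutamine lists, and the 5 largest WT region differences each way. For partner lists, up to 3 called genes with the smallest p are named. Hsp90b1, Hspa5, Dnajc3, Dnajc27 and Hsf1 were added after their values were seen. The members and lists were chosen with earlier results of these data known. Alternatives were a pseudocount of 0.5 or 5, no filter or a mean of at least 100, each region on its own, libraries centred on their median, edgeR, DESeq2, trends on gene length and GC content taken out, no LFC limit, and each library left out. Dnajb8, Pfdn6 and the marker genes Drd1, Cfap126 and the globins were not analysed here, and Slc6a3 was below the minimum mean and not tested. Positions are from GENCODE vM21 on GRCm38, which held all 65 members, and promoters from RefSeq on GRCm38.p6, which held 53. A list of related genes with symbols outside the rule is not reported here.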

Additional observations from a re-analysis of the deposited data

Results flagged for a closer look

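Of the 65 members, 3 had a genotype effect that differed between cortex and cerebellum by the interaction test of limma. Among all tested genes, 3.26% had a higher and 4.89% a lower effect in the cortex by the same test. The effect in the cortex minus that in the cerebellum was -1.31 (log2) for Hspa1b (adjusted p = 0.0168), -1.09 for Dnajc21 (adjusted p = 0.00789) and 0.33 for Dnajb2 (adjusted p = 0.0143). Region and dataset cannot be told apart, so these values hold for the 2 sets of libraries as sequenced. Groups of 3 libraries are too small for a check of single outlying libraries.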

How the results depend on the processing

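No paired analysis was possible because the columns of the table carry no replicate number of the labels. The counts below are of members, and the shares of all tested genes called under each alternative fit are not given here. A changed count therefore cannot be told from a change in calls over all genes. In the cortex, 3 members were called higher when each region was fitted on its own, against 6, and leaving out 1 library gave 4 to 6 higher and 4 to 6 lower. In the cerebellum, 2 were called lower with each region on its own and with DESeq2 (Hspa12a and Hspb8), and 0 to 2 without 1 library, 0 without libraries 1, 2, 3, 4 or 6 and 2 without cortex library A or B. In the cerebellum 0 were called higher in every fit. For the difference between the regions, 2 members were higher with a mean of at least 100 and with edgeR and 5 with DESeq2 (Dnajb2, Dnajc12, Hsp90aa1, Hsp90ab1, Hspa8), and without 1 library 0 to 3 were higher and 1 to 3 lower. Without library 3 of the cerebellum 0 were higher, without cortex library C 3 were, without cortex library D or E or cerebellar library 6 there were 2, and without cerebellar library 1 or cortex library C 1 was lower. Between the WT regions, leaving out 1 library gave 19 to 23 higher and 11 to 13 lower. The median LFC of the members was -0.042 in the cortex with trends on gene length and GC content taken out, and -0.018 to 0.033 without 1 library. In the cerebellum it was -0.030 to 0.021 without 1 library, the lowest without WT library 6. No called comparison of a named member changed sign in these fits. Depth limits the members with the lowest counts, Dnajb13, Hspa1l and Hspb2, and the intervals cover the spread between these libraries only.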
